A study of Drosophila melanogaster with 96 samples.

Results

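Heads of adult Drosophila melanogaster kept at 29 °C in constant darkness were compared with heads kept at 25 °C in constant darkness, gene by gene, to describe which pathways respond to mild warmth. The comparison uses 48 of the 96 RNA-seq libraries of the study, 24 at each temperature, chosen by the condition in each library's title. Flies of both groups were of the ISO1 strain, an inbred laboratory stock, and were labelled male; the labels name no transgene and no agent given to them. Heads were collected at hours 0, 4, 8, 12, 16 and 20 of day 4 and again of day 5, with 2 libraries per time point and temperature. The labels give no starting event for the count of days, and do not say how long the flies had been at their temperature or which libraries shared an incubator or a collection run, so such a run and the temperature cannot be told apart. Darkness is shared by both groups, and 29 °C is warm for this species but below the temperatures used for a laboratory heat shock. The other libraries are of flies at 18 °C in darkness and of flies at 25 °C in a light-dark cycle.

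In flies, heat unfolds proteins and activates the heat shock transcription factor, which drives genes for Hsp70, for its DnaJ-type co-chaperones and for the small heat shock proteins that hold unfolded proteins until they can be refolded. Other systems discussed here are innate immunity, in which the Toll and Imd pathways switch on antimicrobial peptide genes in fat body and other tissues, and detoxification, in which cytochrome P450 enzymes, glutathione transferases and UDP-glycosyltransferases modify foreign and endogenous compounds. The head holds brain, compound eyes, cuticle, muscle and a layer of fat body, and each of these contributes to the RNA measured.

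Library totals were 18205297 to 30450769 counts at 29 °C (median 21668290) and 17312403 to 34740843 counts at 25 °C (median 20488660). The 6 photoreceptor markers and 5 neuron markers were present, with summed levels of 55619 to 90170 CPM at 29 °C and 52680 to 88858 CPM at 25 °C for photoreceptors (in CPM, counts normalised to library size). Marker lists of accessory gland and gut had 0 members above the filter on low counts. Libraries of both temperatures held the male-specific RNA lncRNA:roX1, at 386 to 683 CPM at 29 °C and 376 to 729 CPM at 25 °C. Yolk protein transcripts, which are known as female products, were also abundant in these heads labelled male, with sums of 21750 to 50386 CPM at 29 °C and 22429 to 60879 CPM at 25 °C. In each of the 24 replicate pairs the libraries were further apart than counting error allows (chi-square per gene 8.71 to 114). The labels do not say whether the 2 replicates came from separate cultures, so p-values measure the spread between these libraries. The strand setting of the counting is not given, and of 115 genes named in the text 37 overlap a gene on the opposite strand in the annotation, among them Hsp68, l(2)efl, Cyp6d5, Cyp6g1, tobi, Ilp3, Gad1, Oda, tra, atk and CG15096. Their values are uncertain to that extent, as are those of the genes said to share reads with a copy or neighbour.

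Of 10409 genes tested, 2806 (27%) differed between 29 °C and 25 °C at an adjusted p-value of 0.05. The calls were 1384 genes higher at 29 °C (13.3%) and 1422 lower (13.7%). Counts of list members called over all 48 libraries are to be read beside these shares. With replicate 2 left out, 951 of 10304 genes were called, 534 of them higher. With replicate 1 left out, 2153 of 10394 were called, 1024 of them higher. Member counts from those tests are to be read beside these totals. The changes over all 48 libraries were small: the median absolute log2 fold change of the 2806 called genes was 0.15, and 93 of them moved by at least 1.5-fold, 76 higher and 17 lower. A change of at least 2-fold was called for 15 genes (0.144%), 14 of them higher. Of the genes tested, 217 have the same rounded counts as another in all 48 libraries, and the 15 genes are 13 distinct measurements. Among those 14 were the small heat shock protein genes Hsp22 and Hsp26, the Hsp70 copies Hsp70Aa and Hsp70Ab, the immune genes PGRP-SC2 and IM18, and CG34291. The only gene that was 2-fold lower was the cytochrome P450 gene Cyp6a16, at 0.33 ± 0.21 CPM at 29 °C and 0.77 ± 0.31 CPM at 25 °C (SD, n = 24 each). This gene passed the filter on low counts through its level at 25 °C: 4 of 24 libraries at 29 °C and 18 of 24 at 25 °C reached 0.48 CPM, and it was not tested without replicate 2 or on either day alone. All 24 libraries at 29 °C lay above all 24 at 25 °C for 6 genes (0.0576% of those tested), which were the Hsp70 copies Hsp70Aa, Hsp70Ab, Hsp70Ba, Hsp70Bb and Hsp70Bbb and the co-chaperone gene DnaJ-1. All lay below for 1 gene (0.00961%), the cytochrome P450 gene Cyp6a8.

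**Figure D1:**
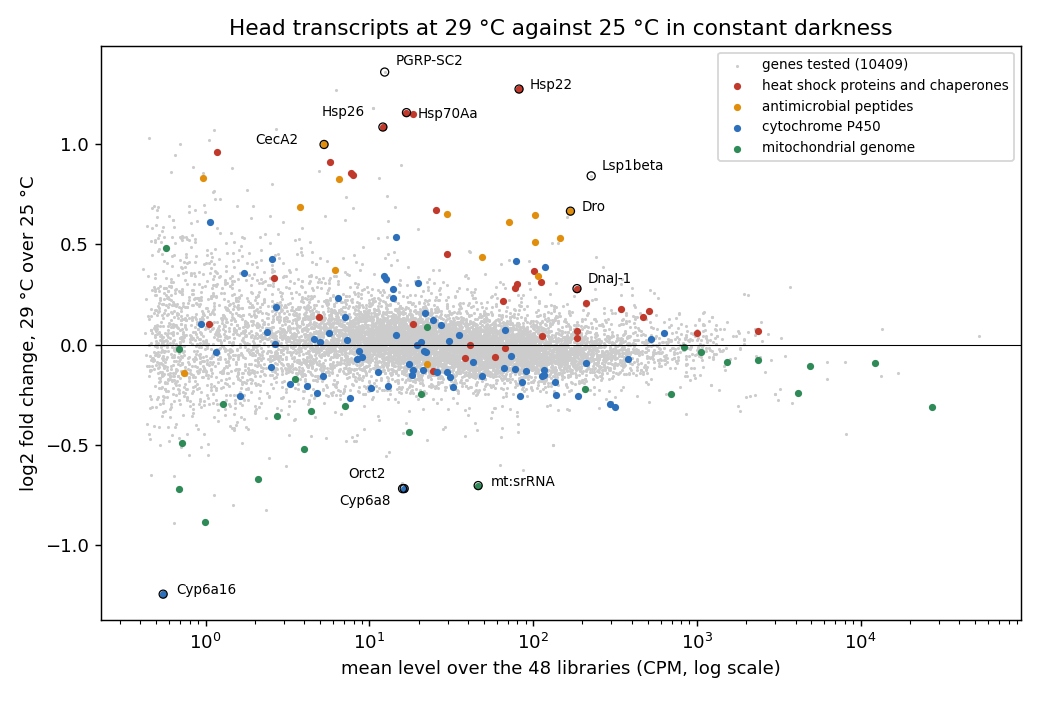
Log2 fold change of each tested gene at 29 °C over 25 °C (vertical axis) against its mean level over the 48 libraries in CPM (horizontal axis, log scale); coloured points are members of 4 gene groups and circled points are named genes. Most of the coloured points at the top are heat shock or antimicrobial peptide genes, while Cyp6a8, Orct2 and mt:srRNA lie near -0.7.

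Small heat shock protein genes rose at 29 °C. Of 11 members tested, 7 were called higher and 0 lower. Hsp22 and CG4456 in this list have identical values, so these are 6 of 10 distinct measurements, with a median log2 fold change of 0.21 beside 0.00 over all genes tested. Hsp22 (FBgn0001223), whose product acts in mitochondria, is in BDGP6.54 at 3L, 9372931 to 9374964, and overlaps CG4456 on the same strand. Hsp22 had 36.3 CPM in the lowest, 115 CPM in the median and 217 CPM in the highest library at 29 °C, against 14.4, 44.1 and 108 CPM at 25 °C. The groups overlapped, with 14 of 24 libraries at 29 °C above the highest at 25 °C, and the log2 fold change was 1.28 ± 0.17 (SE, adjusted p = 1.003e-07). Levels of Hsp22 were higher in replicate 2 than in replicate 1 at every time point of both temperatures. Hsp26 had 10.6, 17.3 and 22.5 CPM at 29 °C, against 6.25, 7.51 and 10.9 CPM at 25 °C (log2 fold change 1.09 ± 0.07, SE, adjusted p = 5.68e-16), and 22 of 24 libraries at 29 °C exceeded the highest at 25 °C. Hsp23 changed by 0.67 ± 0.04 and l(2)efl, an αB-crystallin-like member, by 0.28 ± 0.08 on the log2 scale. The l(2)efl call was lost without replicate 2, where its log2 fold change was 0.21, and the count of members called was then 4, with CG4456 and Hsp22 both counted.

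The Hsp70 genes gave the clearest separation of the temperatures. Their copies are nearly identical in sequence, so reads may have been divided among them, and the summed level is the safer measure. The 6 copies together had 59.6, 79.4 and 95.4 CPM in the lowest, median and highest library at 29 °C, against 33.1, 36.9 and 46.4 CPM at 25 °C. No library at 29 °C overlapped the range at 25 °C, and the ratio of the means was 2.06. Singly, Hsp70Aa (3R, 11954163 to 11956544, BDGP6.54) had 17.5, 23.2 and 30.2 CPM at 29 °C, against 8.40, 10.1 and 12.6 CPM at 25 °C (log2 fold change 1.16 ± 0.05, SE, adjusted p = 9.48e-22). The other 5 copies changed by 0.85 to 1.15 on the log2 scale, and only Hsp70Bc had overlapping groups.

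Other chaperone genes rose too, though not all of them. DnaJ-1, the inducible Hsp40 partner of Hsp70, had 186, 203 and 221 CPM at 29 °C, against 152, 168 and 183 CPM at 25 °C, so the groups did not overlap although the log2 fold change was only 0.28 ± 0.02 (SE). Stip1, which links Hsp70 to Hsp90, averaged 115 ± 9.82 CPM at 29 °C and 88.7 ± 7.14 CPM at 25 °C (SD, n = 24 each; log2 fold change 0.37 ± 0.04, SE). Hsp68, an inducible Hsp70 relative, had 27.1, 34.8 and 42.0 CPM at 29 °C, against 20.2, 25.1 and 32.5 CPM at 25 °C (log2 fold change 0.45 ± 0.04). In the list of large chaperones, 17 of 24 members tested were called higher and 2 lower, with a median log2 fold change of 0.21. The 2 lower ones were Hsc70-1 (-0.13 ± 0.04) and mrj, a DnaJ-type co-chaperone gene (-0.06 ± 0.02), and both calls were lost without replicate 2, at -0.09 and -0.05, and that of mrj also without replicate 1, at -0.07.

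Genes for the abundant constitutive chaperones moved little. Hsp83, the fly Hsp90, averaged 1025 ± 81.5 CPM at 29 °C and 982 ± 66.8 CPM at 25 °C (SD, n = 24 each) and was not called (log2 fold change 0.06 ± 0.03, SE, adjusted p = 0.13). Hsc70-4, the main constitutive Hsp70 relative, had a log2 fold change of 0.07 ± 0.03 with an adjusted p-value of 0.0461, and its call was lost without replicate 1 (0.04) and without replicate 2 (0.11). The transcription factor gene Hsf was not called, at 66.6 ± 3.48 CPM at 29 °C and 67.3 ± 3.71 CPM at 25 °C. Hsp68, DnaJ-1, Stip1, Hsp83, Hsc70-4 and Hsf were chosen for naming after their values were seen.

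The cytosolic chaperonin CCT, a ring that folds actin and tubulin, changed as a group by a small amount. Of its 8 subunit genes 7 were called higher and 0 lower, and all 8 log2 fold changes were positive, from 0.07 to 0.21. CCT8 had 81.5, 90.9 and 102 CPM at 29 °C, against 71.1, 78.2 and 85.5 CPM at 25 °C, and 19 of 24 libraries at 29 °C exceeded the highest at 25 °C (log2 fold change 0.21 ± 0.02, SE, adjusted p = 1.36e-09). The chaperones of the endoplasmic reticulum had no common direction, with 3 called higher, 2 lower and a median of -0.02 over 16 tested. Ire1, the sensor of unfolded proteins in that compartment, fell by 0.13 on the log2 scale (SE 0.02). Calr, calreticulin, changed by 0.09 ± 0.03, a call lost without replicate 1 (0.09) and without replicate 2 (0.08). Of 33 proteasome subunit genes, 1 was called higher and 0 lower. With a covariate for gene length (defined with the exon lengths) 0 were higher and 5 lower, a share near that of all genes called lower in that fit.

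**Figure D2:**
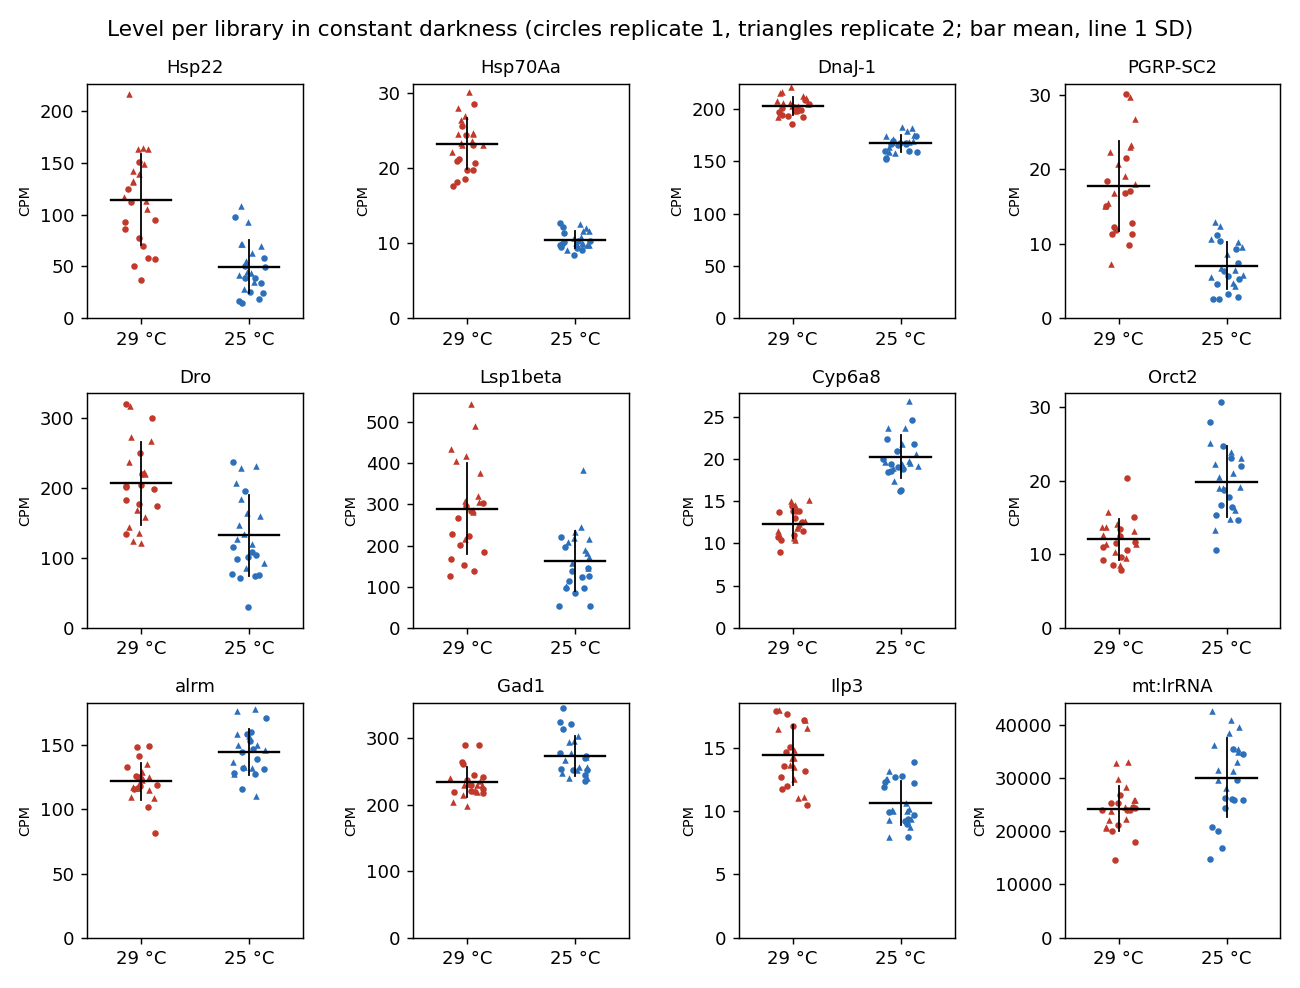
Level in CPM (vertical axis, starting at 0) of 12 genes in every library at 29 °C (left in each panel) and 25 °C (right); circles are replicate 1, triangles replicate 2, the bar is the mean and the line 1 SD. Hsp70Aa, DnaJ-1 and Cyp6a8 separate the groups completely, while the other genes overlap.

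Antimicrobial peptide genes rose at 29 °C, among them genes known mainly as Imd targets and the Toll target Drs. Of 15 members tested 11 were called higher and 0 lower (73.3% higher, against 13.3% of all genes tested), and the median log2 fold change was 0.61. CecA2, a cecropin, had 3.73, 5.90 and 16.3 CPM at 29 °C, against 0.562, 3.09 and 8.09 CPM at 25 °C. The groups of CecA2 overlapped (log2 fold change 0.999 ± 0.18, SE, adjusted p = 2.31e-05). Dro, drosocin, had 121, 202 and 320 CPM at 29 °C, against 30.1, 118 and 237 CPM at 25 °C (log2 fold change 0.67 ± 0.14, SE). The attacin gene AttB changed by 0.65 ± 0.12, the diptericin gene DptA by 0.65 ± 0.15 and CecC by 0.69 ± 0.12 on the log2 scale.

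The size of this rise differed between the replicate numbers. Summed over the list, the antimicrobial peptide genes had 616, 946 and 1416 CPM in the lowest, median and highest library at 29 °C, against 208, 619 and 1152 CPM at 25 °C. The ratio of the means was 1.44 over all libraries, 1.72 among the libraries of replicate 1 and 1.24 among those of replicate 2. Without replicate 1, 7 members were called and the median log2 fold change was 0.33, and without replicate 2 it was 0.78. Drs, drosomycin, changed by 0.61 ± 0.21 and lost its call without replicate 1, at 0.08. CecA2, CecC, Dro, AttB and DptA kept theirs without either replicate number.

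PGRP-SC2 had the largest increase among genes of at least 5 CPM that moved one way at all 12 time points. It encodes an amidase that cleaves bacterial peptidoglycan and is known to dampen Imd signalling. PGRP-SC2 (FBgn0043575; 2R, 8716950 to 8717695, BDGP6.54) had 7.26, 16.97 and 30.2 CPM at 29 °C, against 2.51, 6.40 and 12.9 CPM at 25 °C. Of its 24 libraries at 29 °C, 17 exceeded the highest at 25 °C (log2 fold change 1.36 ± 0.15, SE, adjusted p = 2.01e-09). It was the only one of 10 peptidoglycan recognition protein genes called, and PGRP-SB1, the most abundant, averaged 142 ± 29.7 CPM at 29 °C and 126 ± 35.3 CPM at 25 °C (SD, n = 24 each).

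Among other immune effectors, the Bomanin and Turandot genes changed less. Of 12 Bomanin genes, which encode Toll-dependent short peptides, 3 were called higher and 0 lower, and all 12 log2 fold changes were positive, up to 0.31. BomS3 changed by 0.28 ± 0.10, and 0 Bomanins were called without replicate 2, where BomS3 stood at 0.19. The overlapping genes CG10332 and IM18 are listed with identical values, with 7.19, 12.0 and 27.1 CPM at 29 °C, against 1.14, 6.08 and 20.4 CPM at 25 °C (log2 fold change 1.18 ± 0.22, SE), and were named after their values were seen. The Turandot genes, secreted stress proteins of the humoral response, had 0 calls among 4 tested, and TotA averaged 179 CPM at 29 °C and 202 CPM at 25 °C.

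Genes of the pathways that act upstream of these effectors did not rise with them. Of 23 Toll and Imd signalling genes, 2 were called higher and 5 lower, with a median log2 fold change of -0.05. The receptor gene Tl averaged 78.9 ± 3.27 CPM at 29 °C and 88.7 ± 5.60 CPM at 25 °C (SD, n = 24 each; log2 fold change -0.17 ± 0.02, SE). Rel, the Imd transcription factor, changed by -0.09 ± 0.03 and cact, the Toll inhibitor, by -0.08 ± 0.02, and both calls were lost without replicate 2, at -0.04 for each, where 1 gene of the list was called lower and 0 higher. Of 6 haemocyte marker genes tested, 2 were called lower and 0 higher.

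Secreted storage proteins included one large increase. Lsp1beta, a subunit of the larval hexamerin that stores amino acids (2L, 898500 to 901316, BDGP6.54), had 126, 284 and 545 CPM at 29 °C, against 52.3, 152 and 384 CPM at 25 °C. The groups overlapped in all but 5 libraries at 29 °C (log2 fold change 0.84 ± 0.16, SE, adjusted p = 9.60e-05). Yp2, a yolk protein gene, went the other way, with 3794, 6864 and 10494 CPM at 29 °C, against 4658, 8796 and 14944 CPM at 25 °C (log2 fold change -0.45 ± 0.13), and its call was lost without replicate 2 at -0.44. Yp1 and Yp3 were not called, at -0.14 ± 0.09 and -0.16 ± 0.10. Of 6 fat body markers tested, 1 was called lower and 0 higher, with summed levels of 6696 to 13213 CPM at 29 °C and 6538 to 17697 CPM at 25 °C. In bulk heads, fewer cells of a type and less RNA per cell cannot be told apart.

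Odorant-binding protein and cuticle protein genes changed in both directions. Of 28 odorant-binding protein genes 6 were called higher and 6 lower. Obp56a averaged 16.3 ± 3.05 CPM at 29 °C and 11.8 ± 2.63 CPM at 25 °C, and Obp49a 124 ± 13.7 CPM at 29 °C and 146 ± 15.2 CPM at 25 °C (SD, n = 24 each). Obp99b, known for higher expression in male fat body, had 67.5, 139 and 348 CPM at 29 °C, against 39.3, 95.3 and 216 CPM at 25 °C (log2 fold change 0.51 ± 0.19, SE), and its call was lost without replicate 1 (0.54) and without replicate 2 (0.46). Of 32 cuticle protein genes 9 were called higher and 6 lower. Cpr72Ec had 132, 182 and 272 CPM at 29 °C, against 72.0, 122 and 179 CPM at 25 °C (log2 fold change 0.64 ± 0.04, SE, adjusted p = 7.04e-17). Cpr49Ae had 14.2, 17.7 and 23.4 CPM at 29 °C, against 19.5, 25.3 and 34.8 CPM at 25 °C, and 15 of 24 libraries at 29 °C lay below the lowest at 25 °C (-0.47 ± 0.06). Without replicate 2 the cuticle protein list had 1 member called higher and 2 lower.

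Detoxification genes fell more often than they rose. Of 76 cytochrome P450 genes 26 were called lower (34.2%, against 13.7% of all genes tested) and 9 higher (11.8%), with a median log2 fold change of -0.07. Cyp6a8 (FBgn0013772; 2R, 14887171 to 14889010, BDGP6.54) had 9.02, 12.2 and 15.2 CPM at 29 °C, against 16.2, 19.6 and 26.9 CPM at 25 °C. Its groups did not overlap, and the log2 fold change was -0.72 ± 0.05 (SE, adjusted p = 3.47e-15). Cyp6d5 had 235, 260 and 295 CPM at 29 °C, against 278, 322 and 391 CPM at 25 °C, with 20 of 24 libraries at 29 °C below the lowest at 25 °C (-0.29 ± 0.02). Cyp6w1 changed by -0.31 ± 0.05 on the log2 scale.

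The P450 genes that rose included Cyp6g1, known for its part in insecticide resistance, with 79.9, 138 and 190 CPM at 29 °C, against 56.9, 103 and 138 CPM at 25 °C (log2 fold change 0.39 ± 0.07, SE). Cyp309a2 changed by 0.54 ± 0.11 and Cyp4e3 by 0.42 ± 0.13, and the call of Cyp4e3 was lost without replicate 2, at 0.31. Without replicate 2, where 951 of 10304 genes were called, the P450 list had 8 members called lower and 5 higher. Conjugating enzymes had a like split: 8 of 29 glutathione transferase genes and 8 of 21 UDP-glycosyltransferase genes were called lower, and 2 of each higher. Without replicate 2 the glutathione transferases had 5 called lower and the UDP-glycosyltransferases 2, with 0 higher in both. GstD2 changed by -0.37 ± 0.08 and Ugt35A1 by -0.18 ± 0.03. The 25 antioxidant genes had 3 called higher and 4 lower, shares of 12% and 16%, which are close to those of all genes.

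Transporters of organic ions fell with the P450 genes. Of 7 tested, 5 were called lower (71.4%, against 13.7% of all genes) and 1 higher (14.3%, against 13.3%). Without replicate 2 the count called lower was 2. Orct2, an organic cation transporter gene (FBgn0086365; 3R, 24273029 to 24275728, BDGP6.54), had 7.89, 11.6 and 20.4 CPM at 29 °C, against 10.6, 19.1 and 30.7 CPM at 25 °C. The groups overlapped, with 7 of 24 libraries at 29 °C below the lowest at 25 °C (log2 fold change -0.72 ± 0.08, SE, adjusted p = 4.17e-09). Orct, its neighbour, had 45.8, 70.2 and 94.4 CPM at 29 °C, against 62.1, 90.6 and 118 CPM at 25 °C (-0.34 ± 0.06). Other large decreases were those of CG15096 (-0.63 ± 0.07), the leucine-rich repeat gene atk (-0.69 ± 0.10), firl (-0.55 ± 0.06) and the cathepsin-like protease gene CtsL3 (-0.54 ± 0.09), of which CtsL3 lost its call without replicate 2, at -0.36. Of 5 aquaporin genes 2 were called lower and 0 higher, among them the water channel gene Drip (-0.18 ± 0.03).

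Glycolysis genes fell slightly. Of 15 tested, 7 were called lower (46.7%) and 0 higher, with a median log2 fold change of -0.09. Pfk, phosphofructokinase, had 208, 229 and 246 CPM at 29 °C, against 228, 258 and 269 CPM at 25 °C, and 9 of 24 libraries at 29 °C lay below the lowest at 25 °C (log2 fold change -0.15 ± 0.02, SE, adjusted p = 3.18e-10). Hex-A, hexokinase, changed by -0.16 ± 0.02, and the lactate dehydrogenase gene Ldh by -0.20 ± 0.06, a call that was lost without replicate 2, at -0.15. Without replicate 2 the list had 2 members called lower. The 19 citrate cycle genes had 2 called higher and 3 lower.

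Some sugar release genes moved, and fat synthesis genes were called lower more often than higher. tobi, an α-glucosidase gene known as a target of brain insulin, had 5.16, 8.51 and 16.7 CPM at 29 °C, against 4.02, 5.74 and 9.90 CPM at 25 °C (log2 fold change 0.68 ± 0.11, SE, adjusted p = 1.13e-05). Treh, trehalase, which splits the blood sugar of flies, changed by 0.17 ± 0.04, and its call was lost without replicate 2, at 0.15. Of 22 fat synthesis genes 6 were called lower and 0 higher, and 1 was called lower without replicate 2. Desat1, a fatty acid desaturase gene, had 1248, 1913 and 2342 CPM at 29 °C, against 1363, 2321 and 3098 CPM at 25 °C (-0.26 ± 0.08), and its call was lost without replicate 2, at -0.20. Oda, which encodes the antizyme that limits polyamine synthesis, had 16 of 24 libraries at 29 °C below the lowest at 25 °C (-0.20 ± 0.03). In the list of methionine cycle and polyamine genes, 3 of 16 were called higher and 5 lower. Sardh, sarcosine dehydrogenase, averaged 21.97 ± 4.50 CPM at 29 °C and 17.6 ± 5.22 CPM at 25 °C, and Bhmt, a homocysteine methyltransferase gene, 16.3 ± 1.34 CPM at 29 °C and 19.3 ± 1.65 CPM at 25 °C (SD, n = 24 each).

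Hormone genes fell more often than they rose, with 1 exception. Of 17 insulin-like and adipokinetic hormone signalling genes 6 were called lower (35.3%, against 13.7% of all genes) and 1 higher (5.88%, against 13.3%). The higher one was Ilp3, an insulin-like peptide of brain neurosecretory cells, with 10.5, 14.2 and 18.0 CPM at 29 °C, against 7.97, 10.1 and 13.9 CPM at 25 °C, and 13 of 24 libraries at 29 °C exceeded the highest at 25 °C (log2 fold change 0.43 ± 0.05, SE, adjusted p = 4.43e-10). Sdr, which encodes a secreted protein that binds insulin-like peptides, changed by -0.22 ± 0.03, and Thor, the translation inhibitor 4E-BP, by -0.17 ± 0.05, a call lost without replicate 2 at -0.19. Of 12 juvenile hormone genes 5 were called lower (41.7%) and 0 higher. Jheh3, an epoxide hydrolase gene of juvenile hormone breakdown, changed by -0.18 ± 0.04. Jhe, the esterase gene of the same breakdown, changed by -0.28 ± 0.08, a call lost without replicate 2, at -0.22. Of 24 ecdysone response and nuclear receptor genes 3 were called lower and 0 higher, a share of 12.5% that is near that of all genes. Without replicate 2, the genes called lower were 2 of the insulin-like and adipokinetic list, 1 of the juvenile hormone list and 0 of the ecdysone list.

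Photoreceptor genes changed little, with log2 fold changes from -0.22 to 0.29 in the phototransduction list, where trp was highest. The gene trp, which encodes a calcium channel of phototransduction, had 2713, 4265 and 4959 CPM at 29 °C, against 2137, 3518 and 4238 CPM at 25 °C. It was higher at all 12 time points (log2 fold change 0.29 ± 0.07, SE, adjusted p = 0.000824), and its call was lost without replicate 2, at 0.27. Of 24 phototransduction genes 4 were called higher and 0 lower, and the 16.7% called higher is near the 13.3% of all genes. Without replicate 2 there were 0 called higher, and without replicate 1 there were 5 higher and 3 lower. The rhodopsin gene ninaE, the most abundant, was not called, at 53332 ± 7954 CPM at 29 °C and 51848 ± 8286 CPM at 25 °C (SD, n = 24 each). Among 14 thermosensory receptor and channel genes 3 were called higher and 3 lower. The heat-gated TRPA channel gene pyx changed by 0.21 ± 0.04 and its relative wtrw by -0.16 ± 0.02, and the call of pyx was lost without replicate 1, at 0.19.

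Glial genes fell. Of 6 glia markers 4 were called lower and 0 higher, and their summed level was 1543, 1911 and 2088 CPM in the lowest, median and highest library at 29 °C, against 1856, 2140 and 2483 CPM at 25 °C. The ratio of these sums was 0.889 over all libraries, 0.908 for replicate 1 and 0.870 for replicate 2. The astrocyte gene alrm had 81.4, 122 and 149 CPM at 29 °C, against 110, 145 and 178 CPM at 25 °C (log2 fold change -0.24 ± 0.04, SE, adjusted p = 5.74e-06). Gs2, the glutamine synthetase that clears glutamate, changed by -0.20 ± 0.03, and repo, the glial transcription factor, by -0.14 ± 0.03. The 5 neuron markers had 0 calls, with sums of 1830 to 2798 CPM at 29 °C and 1736 to 2797 CPM at 25 °C and a median log2 fold change of -0.03. With a covariate for gene length that median was 0.10 with 3 called higher, while glia had -0.13 with 5 called lower.

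Genes for making and carrying neurotransmitters also fell. Of 19 tested, 10 were called lower (52.6%) and 0 higher, with a median log2 fold change of -0.12, and 4 were called lower without replicate 2. Gad1, which makes GABA, had 197, 229 and 290 CPM at 29 °C, against 236, 269 and 345 CPM at 25 °C, and 16 of 24 libraries at 29 °C lay below the lowest at 25 °C (log2 fold change -0.23 ± 0.03, SE, adjusted p = 7.07e-07). Ddc, dopa decarboxylase, changed by -0.21 ± 0.05. The ebony gene e, whose enzyme couples β-alanine to amines, changed by -0.37 ± 0.12, and the black gene b, whose decarboxylase makes β-alanine, by -0.29 ± 0.07. The call of e was lost without replicate 1, at -0.27, and without replicate 2, at -0.45, and with day 4 alone, at -0.48, and day 5 alone, at -0.21. That of b was lost with day 5 alone, at -0.18, and both were lost in the model of all 96 libraries, at -0.44 for e and -0.32 for b. The fall in glia markers moved with this list, and its part in the result was not tested. Of 19 synaptic vesicle and active zone genes 3 were called lower and 0 higher (15.8%), and of 25 ion channel genes 1 was called higher, the potassium channel gene Elk (0.35 ± 0.04), and 2 lower.

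Core clock genes were close to level in the mean over the day. Of 8 tested, 1 was called, cwo, a transcriptional repressor of the clock, with 77.0, 89.9 and 106 CPM at 29 °C, against 80.6, 98.6 and 126 CPM at 25 °C (log2 fold change -0.15 ± 0.03, SE, adjusted p = 0.000242). The light-sensitive clock gene tim had a log2 fold change of -0.10 ± 0.05 and its partner per of -0.11 ± 0.06, and neither was called. Of 14 activity-regulated genes 5 were called lower (35.7%, against 13.7% of all genes) and 0 higher. The lower ones included cbt (-0.17 ± 0.03). The count of activity-regulated genes called lower was 2 without replicate 1 and 1 without replicate 2. With the covariate for gene length, 2 were called lower and 1 higher.

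RNA-binding and muscle genes gave further small changes. Of 18 splicing factor genes of the SR family and its partners, 5 were called higher (27.8%, against 13.3% of all genes) and 0 lower. Without replicate 2 the count called higher was 2. Among the 5 were tra (0.30 ± 0.04) and tra2 (0.18 ± 0.03), which act together in the sex-specific splicing of doublesex. lncRNA:roX2, an RNA of the male dosage compensation complex, had 19.9, 27.8 and 38.2 CPM at 29 °C, against 14.7, 21.6 and 28.6 CPM at 25 °C (log2 fold change 0.37 ± 0.06, SE, adjusted p = 2.15e-06). Of 23 muscle contractile genes 8 were called higher (34.8%, against 13.3% of all genes) and 3 lower (13%, near the 13.7% of all genes). Mlc2, a myosin light chain gene, averaged 815 ± 75.1 CPM at 29 °C and 731 ± 85.5 CPM at 25 °C (SD, n = 24 each).

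Transcripts of the mitochondrial genome were lower at 29 °C, but not evenly over the replicates. Of 26 tested 8 were called lower and 1 higher, with a median log2 fold change of -0.25. Summed, they had 31468, 50228 and 68534 CPM in the lowest, median and highest library at 29 °C, against 34587, 60738 and 78174 CPM at 25 °C. The medians were 49704 CPM at 29 °C and 48792 CPM at 25 °C among the libraries of replicate 1, and 53133 CPM at 29 °C and 68957 CPM at 25 °C among those of replicate 2. Without replicate 1, 14 members were called lower, and without replicate 2 there were 3. The small ribosomal RNA mt:srRNA kept its call in both, with 12.0, 35.9 and 57.6 CPM at 29 °C, against 31.6, 58.8 and 90.3 CPM at 25 °C (log2 fold change -0.70 ± 0.12, SE, adjusted p = 2.43e-05), while mt:lrRNA (-0.31 ± 0.08) lost its call without replicate 2, at -0.13. Libraries were made from polyadenylated RNA, so these levels also depend on how such transcripts are captured.

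Nuclear genes for mitochondrial ribosomes rose. Of 75 tested, 24 were called higher (32.0%, against 13.3% of all genes) and 2 lower, with a median log2 fold change of 0.08 and 65 positive values. mRpS18B had 9.34, 11.7 and 13.2 CPM at 29 °C, against 6.94, 9.29 and 13.3 CPM at 25 °C (log2 fold change 0.28 ± 0.05, SE, adjusted p = 1.42e-05), so the groups overlapped fully at the top. mRpL40 and mRpS29 each changed by 0.18, with SEs of 0.04 and 0.03. The count called higher was 13 without replicate 1 and 9 without replicate 2. Of 70 nuclear respiratory chain genes 5 were called higher and 3 lower, and of 84 cytosolic ribosomal protein genes 7 higher and 0 lower (8.33%), with medians of 0.02 for both. Among the cytosolic ones, sta, the ribosomal protein SA gene, changed by 0.25 ± 0.04. ND-SGDH, a complex I subunit gene, averaged 146 ± 12.6 CPM at 29 °C and 128 ± 12.8 CPM at 25 °C (SD, n = 24 each; log2 fold change 0.19 ± 0.04, SE).

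**Figure D3:**
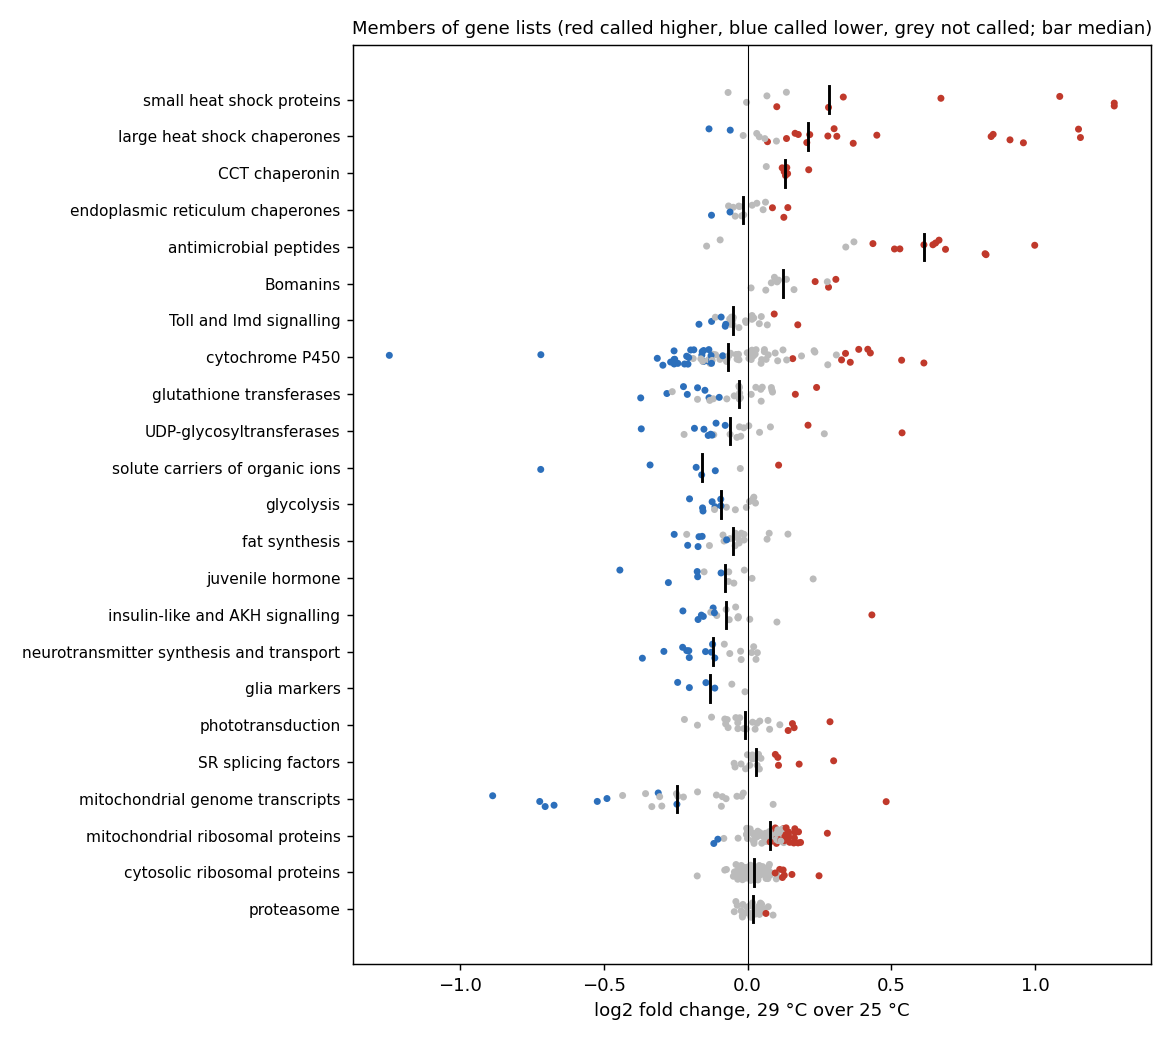
Log2 fold change at 29 °C over 25 °C (horizontal axis) of each tested member of 23 gene lists (rows); red points were called higher, blue lower and grey not called, and the bar is the list's median. Antimicrobial peptides have the highest median, 0.61, and mitochondrial genome transcripts the lowest, -0.25.

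Genes called higher were shorter than those called lower. The median total exon length was 1733 bases for protein-coding genes called higher and 3010.5 bases for those called lower, beside 2178 bases for all 9790 tested. In the quartile of genes with the shortest exons, 17.7% were called higher and 6.11% lower, with a median log2 fold change of 0.04. In the longest quartile 5.23% were called higher and 20.8% lower, with a median of -0.05. Genes without introns were called higher in 17.7% of 790 cases and lower in 9.62%.

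A length index was formed for each library, as the median log2 deviation of the longest quartile minus that of the shortest. It ran from -0.28 to 0.16 at 29 °C with a median of -0.02, and from -0.29 to 0.57 at 25 °C with a median of 0.05. The difference of the means, -0.08, did not pass a 2-sided permutation test (p = 0.13, 100000 resamples). The library at 25 °C, day 5, hour 16, replicate 2 stood apart at 0.57. Without it 2745 genes were called, 2588 of them among the 2806, and the calls of Calr and Obp99b were the only ones lost among the named genes. With the index as a covariate, 3331 of 10409 genes were called, 1636 of them higher, and member counts from this fit are to be read beside these totals. In this fit the median of the cytosolic ribosomal protein genes was -0.03, with 6 called higher and 18 lower, so their direction depends on this choice. In all, 9 of 58 lists had a median of the other sign with the index. Among them the nuclear respiratory chain turned to -0.01 with 4 called higher and 13 lower, the proteasome to -0.01 with 0 higher and 5 lower, synaptic vesicle genes to 0.02 with 4 higher and 2 lower, ion channels to 0.03 with 4 higher and 2 lower, and phototransduction genes to 0.06 with 5 higher. The shares of proteasome genes called lower and of ion channel genes called higher were near those of all genes in this fit. The neuron markers turned to 0.10 with 3 called higher. The citrate cycle and ribosome biogenesis lists had medians within 0.02 of 0 either way, while the mitochondrial ribosomal protein genes had 21 called higher and a median of 0.04. The small heat shock, large chaperone, CCT and antimicrobial peptide lists again had 7, 17, 7 and 11 called higher, with 1 small heat shock gene called lower. The index covariate and the library left out were chosen after the data were seen.

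Chromosome 4, a small and mostly heterochromatic chromosome, differed from the others in its calls. Of its 97 genes tested, 26 were called lower (26.8%) and 4 higher (4.12%), with a median log2 fold change of -0.06. The other 5 chromosome arms had 12.9% to 14.3% called lower and 12.2% to 14.6% higher. Exon lengths on chromosome 4 were not matched to those of the other arms, and this class was chosen after the data were seen.

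**Figure D4:**
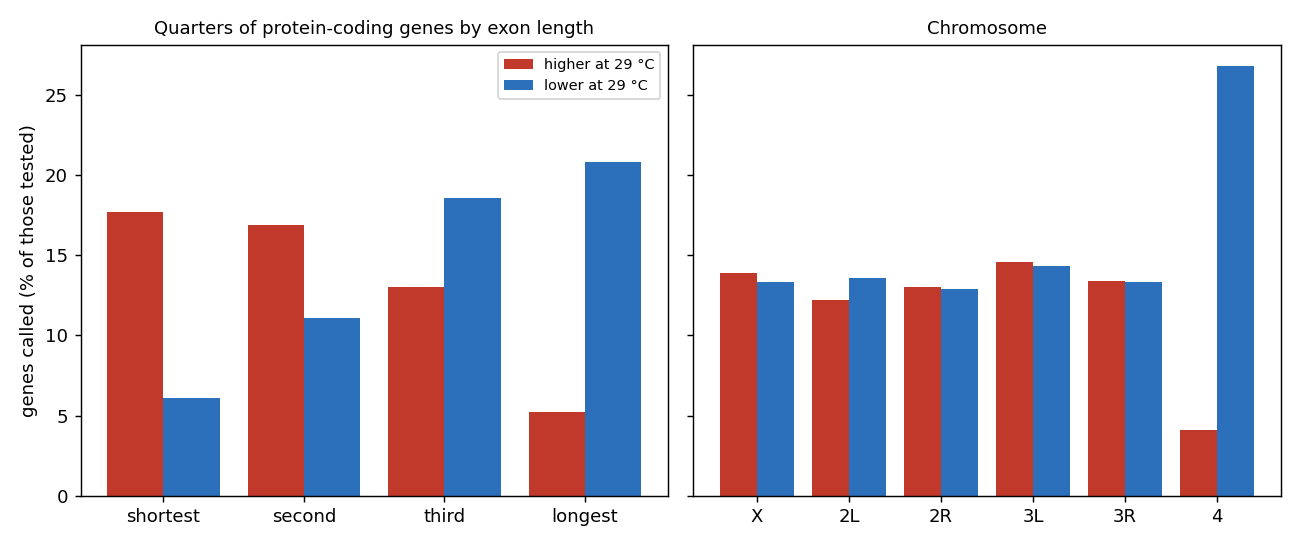
Percent of tested genes called higher (red, left bar) and lower (blue, right bar) at 29 °C, by quartile of exon length for protein-coding genes (left panel) and by chromosome arm (right panel). Calls shift to lower with length, with 20.8% lower in the longest quartile, and chromosome 4 has 26.8% lower.

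The difference between the temperatures was tested for change over the 2 days and over the 6 hours. By edgeR, 0 genes (0% of those tested) had a call for a difference between day 4 and day 5. At an unadjusted p-value under 0.05 there were 491 genes (4.72%). Between hours 0 genes (0%) had a call, with 128 (1.23%) at an unadjusted p-value under 0.05, and DESeq2 also called 0 in both tests. That share for hours is well below what evenly spread p-values would give, so the hour test was conservative. Its 0 calls do not show an even response over the hours, and the fit with replicate numbers as a block called 10 genes. The smallest adjusted p-values were 0.935 for days and 0.775 for hours. The smallest p-values over days were those of Atx-1, asrij, CG4998 and CG33521. Of these asrij, a haemocyte endosome gene, changed by 0.27 ± 0.04 in the mean over both days. Atx-1 was not tested without replicate 1, without replicate 2 or on either day alone, where it did not pass the filter on low counts. For hours the smallest p-values were those of alka and CG34134, followed by b and Ntmt. Of the 2806 called genes 1129 had the same direction in the means of all 12 time points. The largest changes named here were chosen among those, so their like direction over time is no further result.

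**Figure D5:**
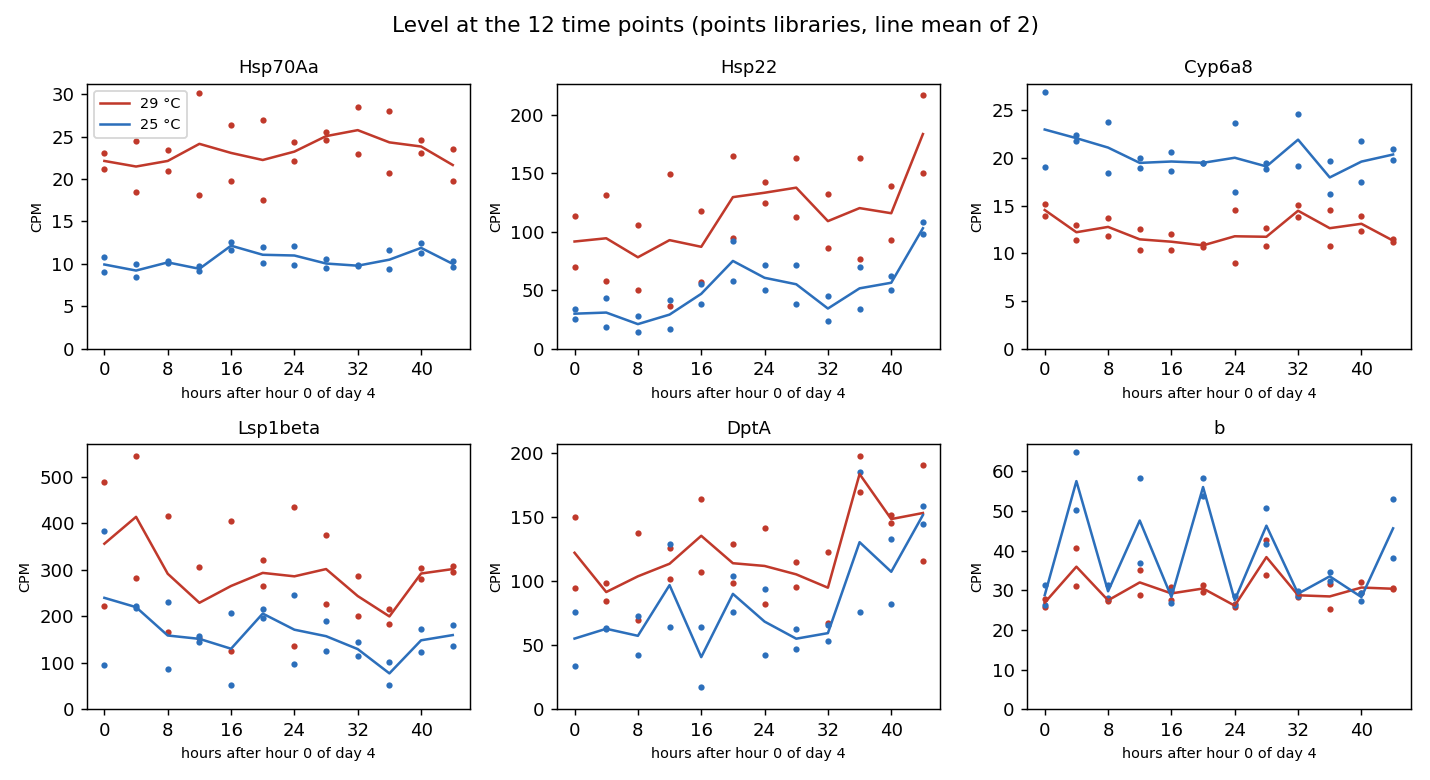
Level in CPM (vertical axis, starting at 0) of 6 genes at the 12 time points of days 4 and 5 (horizontal axis, hours), at 29 °C (red) and 25 °C (blue); points are libraries and lines join the means of 2. Hsp70Aa stays above and Cyp6a8 below its level at 25 °C at every time point, while b differs mainly at hours 4, 12 and 20.

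Levels at 18 °C, from 24 libraries in constant darkness, place these changes on a wider range. The comparison of 18 °C with 25 °C shares the libraries at 25 °C with the one above and called 6908 of 10415 genes (66.3%), so the values are given side by side only. The summed Hsp70 copies averaged 17.9 ± 1.25 CPM at 18 °C, 37.9 ± 3.31 CPM at 25 °C and 78.1 ± 10.2 CPM at 29 °C (SD, n = 24 each). PGRP-SC2 averaged 1.43 ± 0.84, 7.03 ± 3.16 and 17.8 ± 6.08 CPM at 18, 25 and 29 °C. Lsp1beta averaged 21.2 ± 7.29, 163 ± 73.3 and 290 ± 111 CPM at the same temperatures. The glia markers summed to 2623 ± 151, 2141 ± 140 and 1903 ± 109 CPM, and Cyp6a8 averaged 29.7 ± 5.59, 20.3 ± 2.56 and 12.3 ± 1.69 CPM, in the same order.

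Other groups gave smaller steps, or an order that did not follow temperature. The antimicrobial peptide genes summed to 600 ± 293 CPM at 18 °C, 677 ± 271 CPM at 25 °C and 971 ± 228 CPM at 29 °C (SD, n = 24 each), and the first 2 differ by less than their spread. CecC averaged 3.47 ± 1.52, 2.90 ± 0.96 and 4.68 ± 1.27 CPM at 18, 25 and 29 °C, and was lowest at 25 °C. Mitochondrial genome transcripts summed to 61521 ± 13802, 59194 ± 13076 and 51195 ± 8563 CPM at 18, 25 and 29 °C, each within 1 SD of the next. Cyp6w1 was highest at 25 °C, with 309 ± 33.8, 348 ± 44.2 and 280 ± 33.0 CPM, and TpnC41C, a troponin C gene, was lower than at 25 °C at both other temperatures, by log2 fold changes of -1.14 at 18 °C and -0.23 at 29 °C, the second of which lost its call without replicate 2, at -0.21. For the CCT genes the median log2 fold change against 25 °C was 0.05 at 18 °C and 0.13 at 29 °C.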

How the data were processed

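Each library is polyadenylated RNA from fly heads, prepared with a strand-specific kit and read paired-end, per the labels' protocols. The authors deposited estimated counts per gene, not normalised; of the nonzero values in the 48 libraries compared, 39.3% are not whole numbers. The submitters' processing notes name fastp 0.23.2, HISAT2 2.2.1, Subread 2.0.8 and featureCounts; the genome build and the strand setting of the counting are not given in the sources used here. All 96 columns matched a sample, with 0 left over. The design had assumed whole counts, so values were rounded before each test. Symbols and positions come from BDGP6.54; whether the authors used that build is not known, and 17607 of 17610 identifiers matched.

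Of 16594 genes with a count, 10409 passed filterByExpr (grouped by condition), and they hold 99.9% of counts. The test was edgeR 4.0.16 (R 4.3.3) quasi-likelihood with TMM factors, hour as a block and the condition over both days, with Benjamini-Hochberg adjustment over all genes tested and a threshold of 0.05. Interactions of condition with day and with hour were tested in the same way. CPM are on a single scale for all 96 libraries, and SEs are of log2 fold changes. "Without replicate 1" or "2" means the same test with the libraries of that replicate number left out, which leaves 12 per temperature. Alternatives included DESeq2 1.42.0, and tests were tried on simulated data.

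The gene lists and members were chosen with earlier results of these data known. The rule for naming genes took the 12 largest increases and 12 largest decreases. These were among called genes with a mean of 5 CPM or more that moved one way at all 12 time points. It took up to 4 called members per direction and list with at least 2 CPM (the 2 most abundant members where fewer than 2 were called). The 4 smallest p-values of each interaction were added. Others, among them DptA and Drs, were chosen after their values were seen, and not all are marked where they appear. Not all genes the rule allows are printed.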

Additional observations from a re-analysis of the deposited data

How the results depend on the processing

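The count of 2806 genes called between 29 °C and 25 °C was within 1.5 times of that value with DESeq2 size factors, totals without the mitochondrial genome, no filter, a filter of 1 CPM in 24 libraries, the DESeq2 test, a block of 12 time points, a model of all 96 libraries, and the 3 alternatives added after the data were seen. It was 858 with day 4 alone, 1653 with day 5 alone, and 951 to 2153 with 1 replicate number left out, where 12 libraries per temperature remain. Of those 951 genes without replicate 2, 907 were among the 2806. The count of 15 genes at 2-fold was 83 with no filter on low counts, where 16594 genes were tested, and 14 to 21 in the alternatives other than the 1 CPM filter (12). Interactions with day stayed at 0 calls in every alternative run, and those with hour at 0 in all but the fit with the replicate block, which gave 10. The 18 °C comparison gave 5699 to 7573 calls.

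With replicate numbers as a block (24 pairs of day, hour and number), 3915 genes were called, 2795 of them among the 2806. Deviations of libraries from the mean of their temperature were correlated between pairs of the same day, hour and number. The correlation had a median of 0.24, beside -0.02 for other pairs, and ran from -0.02 to 0.59. Of 24 pairs, 20 were over 0.1 and 6 were best matched to their own number. Such pairs share day and hour as well as number, so these values cannot decide whether the numbers pair the libraries. The main test left the numbers unpaired, as the labels name no shared batch. The block called 5 named genes that the main test did not, namely tim, PGRP-SB1, Yp1, Yp3 and CG34134. With day 5 alone, CG4998 reversed to 0.43. Hsf reversed to 0.0077 without replicate 2 (-0.037 without replicate 1) and to 0.0051 with the length index as a covariate. These 2 genes were not called, and the cause was not tested. Of the 102 called genes that the text names, 64 kept their call in every alternative they were tested in, while 27 lost it with day 4 alone, 17 with day 5 alone, 9 without replicate 1, 25 without replicate 2, 6 in the model of all 96 libraries and 5 each with no filter on low counts and with the length index as a covariate.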

Other observations

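Levels of the ebony gene e alternated between collection hours at both temperatures, and those of the black gene b did so at 25 °C and, less regularly, at 29 °C. At hours 4, 12 and 20, e had 39.5, 51.0 and 110.3 CPM in the lowest, median and highest of 12 libraries at 29 °C, against 50.2, 90.9 and 152.9 CPM at 25 °C. At hours 0, 8 and 16 it had 26.4, 34.1 and 45.6 CPM at 29 °C, against 30.6, 36.6 and 41.2 CPM at 25 °C. For b the medians at hours 4, 12 and 20 were 31.2 CPM at 29 °C and 50.5 CPM at 25 °C, and at hours 0, 8 and 16 they were 27.7 CPM at 29 °C and 28.6 CPM at 25 °C. Balat, a β-alanine transporter gene, had medians of 9.54 CPM at 29 °C and 16.6 CPM at 25 °C at hours 4, 12 and 20, and of 5.24 CPM at 29 °C and 5.08 CPM at 25 °C at hours 0, 8 and 16. The medians at 29 °C and 25 °C thus lay further apart at hours 4, 12 and 20, a split that was chosen after the values were seen. It was less even on day 5, where b averaged 28.5 CPM at hour 12 and 30.4 CPM at hour 20 at 29 °C, beside 30.7 CPM at hour 16. On that day e averaged 79.5 CPM at 29 °C and 81.3 CPM at 25 °C at hour 4, and 50.2 CPM at 29 °C and 54.0 CPM at 25 °C at hour 12.

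Across the 24 libraries at 25 °C, the genes of at least 5 CPM most like b by Spearman's rho were e (0.954), Balat (0.947) and Cyp4g15 (0.931); at 29 °C the same pairs had rho of 0.728, 0.757 and 0.756. These libraries share their hours, so the values are a description. Over all 10409 genes, the 12 libraries of hours 4, 12 and 20 lay wholly above the other 12 for 2 genes at 29 °C and 18 at 25 °C, and wholly below for 11 at 29 °C and 12 at 25 °C. CG12239 and CG9297 were below at both temperatures. CG12239 averaged 314 CPM at hours 4, 12 and 20 and 388 CPM at the other hours at 29 °C, against 327 and 410 CPM at 25 °C.

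Library composition differed by replicate number. In the mitochondrial transcripts at 25 °C the median was 48792 CPM in replicate 1 and 68957 CPM in replicate 2, and at 29 °C 49704 and 53133 CPM. At 18 °C the means were 51372.4 CPM in replicate 1 and 71668.5 CPM in replicate 2. Other genes differed too: at 25 °C and 29 °C, Hsp22 was higher in replicate 2 than in replicate 1 at every time point, and Lsp1beta at most of them. The labels do not say what a replicate number stands for.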
